A study of Mus musculus with 13 samples.

Results

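The 8 genes described here mark mast cells, and they were followed across sorted mouse melanocytes and uncultured pigment cell lesions. They are Mcpt4, Cma1, Cpa3 and Tpsb2, which encode granule proteases, Ms4a2 and Fcer1a, which encode chains of the high-affinity IgE receptor, Hdc, which encodes the enzyme that makes histamine, and Gata2, which encodes a transcription factor. They were chosen by name, with earlier results of these data known. These are 8 of the 19937 genes that the arrays measured with a probe set of their own, and all 8 were measured by 1 such probe set each. No filter on low values was applied to them.

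Mast cells are long-lived immune cells of skin and other barrier tissues, filled with granules that hold proteases, heparin-bound serglycin and histamine. In the skin they lie around vessels, nerves and hair follicles, and crosslinking of IgE on their Fc receptors makes them release these granules. They depend on the receptor Kit and its ligand, stem cell factor, which melanocytes also need, and mast cells and melanocytes share the transcription factor Mitf as well.

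Gene expression was profiled on 13 arrays, 1 per sample, in 6 groups of mice whose melanocytic lesions differ in Braf, Cdkn2a and Lkb1. Cdkn2a encodes cell cycle inhibitors and Lkb1, encoded by Stk11, is a kinase that restrains mTORC1. The sorted material was melanocytes purified by FACS: Cdkn2a only, with wild-type Braf, at day 19 (2 arrays), Cdkn2a/Braf at day 19, ahead of growth arrest (2 arrays), and Cdkn2a/Braf at day 50, following growth arrest (2 arrays). The other material was tissue that had not been cultured: melanoma of Cdkn2a/Braf genotype (2 arrays), melanoma of Cdkn2a/Braf/Lkb1 genotype (2 arrays) and Lkb1/Braf melanocytic proliferations, pooled (3 arrays). A Cdkn2a allele is thus named for every group but the proliferations, and a Braf allele for every group but the Cdkn2a only cells. The sources used here do not give what the days count from, the age of mice with lesions, the sort gate, the driver of the alleles or the number of lesions pooled. The samples of a group are called biological replicates in the labels, and with 2 or 3 arrays a group their number limits the precision of every value.

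The tissue arrays are mixtures of cells, and in such bulk samples fewer mast cells and less RNA per mast cell cannot be told apart. Summed intensity of 10 melanocyte genes, among them Tyr, Dct and Pmel, was 24094 to 51176 on the sorted arrays, 3550 to 3997 in the proliferations and 577 to 946 in the melanomas. The melanoma tissue thus held little of this summed signal. Sox10, on the same list, was 132 and 279 in Cdkn2a/Braf melanoma, 61.5 and 85.9 in Cdkn2a/Braf/Lkb1 melanoma and 131 to 171 in the proliferations. Whether the low sums reflect fewer melanocytic cells or lower levels of these genes was not tested. The 10 macrophage genes summed to at most 1668 on sorted arrays and at least 4152 on tissue arrays. Replicate 2 of the Cdkn2a/Braf melanoma stood apart for the mast cell genes: it was the highest of the 13 arrays for 7 of 8 members, against 4.59% of all genes. Fits without it hold no replicate spread for its group, so their calls are not compared with those of all arrays. Differences without it are given for some genes.

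The granule proteases split into chymases, tryptases and a carboxypeptidase. Mcpt4 is the mouse chymase that acts most like the human one, Cma1 is a further chymase of the same cluster on chromosome 14, Cpa3 is the mast cell carboxypeptidase and Tpsb2 is a tryptase. GATA factors bind the letters AGATAA and TGATAA in many mast cell genes, and so the 250 bases before the transcription start of the members were searched for these letters on both strands, with sequences from RefSeq for GRCm38.p6. The search, its letters and the window were chosen after the expression values were seen. Promoters were found for 7 of the 8 members (Tpsb2 was not matched). The letters occurred in 4 of these 7, in Mcpt4, Cpa3, Ms4a2 and Fcer1a, against 16.6% of 32851 promoters of the same length. Those 4 promoters are shown with the matches in capitals, and the promoter of Cma1 is shown as a chymase without a match.
Mcpt4, minus strand, chr14:56062311-56062560: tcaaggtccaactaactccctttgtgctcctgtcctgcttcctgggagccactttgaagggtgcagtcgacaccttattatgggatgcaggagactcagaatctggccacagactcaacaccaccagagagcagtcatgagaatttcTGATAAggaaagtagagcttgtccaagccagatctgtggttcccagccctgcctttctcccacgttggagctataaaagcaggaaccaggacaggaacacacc
Cpa3, minus strand, chr3:20242182-20242431: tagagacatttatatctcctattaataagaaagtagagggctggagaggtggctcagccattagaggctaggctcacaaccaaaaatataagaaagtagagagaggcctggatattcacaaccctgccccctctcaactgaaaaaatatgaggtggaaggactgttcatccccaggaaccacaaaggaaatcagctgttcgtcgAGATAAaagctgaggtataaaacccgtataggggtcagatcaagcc
Ms4a2, minus strand, chr19:11623720-11623969: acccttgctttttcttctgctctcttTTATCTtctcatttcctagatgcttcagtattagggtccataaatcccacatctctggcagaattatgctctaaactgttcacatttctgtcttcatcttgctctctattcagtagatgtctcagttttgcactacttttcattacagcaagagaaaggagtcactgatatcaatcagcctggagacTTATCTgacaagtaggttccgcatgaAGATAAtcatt
Fcer1a, minus strand, chr1:173227230-173227479: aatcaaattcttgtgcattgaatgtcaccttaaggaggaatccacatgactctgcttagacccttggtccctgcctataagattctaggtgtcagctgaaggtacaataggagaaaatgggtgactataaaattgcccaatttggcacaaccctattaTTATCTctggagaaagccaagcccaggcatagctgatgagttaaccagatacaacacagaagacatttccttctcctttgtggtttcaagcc
Cma1, minus strand, chr14:55944676-55944925: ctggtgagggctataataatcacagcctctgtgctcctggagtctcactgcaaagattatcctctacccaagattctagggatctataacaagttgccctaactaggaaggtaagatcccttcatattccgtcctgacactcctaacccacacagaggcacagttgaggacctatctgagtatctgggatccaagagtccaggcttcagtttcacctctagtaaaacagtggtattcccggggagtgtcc
The sequences run 5′ to 3′ on the gene's strand, so the last base is the one before the start. Counted back from the start, the match was at -103 to -98 in Mcpt4, at -46 to -41 in Cpa3 and at -92 to -87 in Fcer1a, where the letters lie on the opposite strand. Ms4a2 held 3 matches, and the nearest lay at -11 to -6. The E-box letters CACATG or CACGTG, which bHLH factors such as Mitf can bind, occurred in Fcer1a alone among the 7 members and in 17.6% of all promoters. A match describes these letters and no binding was measured, and no match says only that the letters are not in this window.

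Mcpt4 was close to the same low intensity on all sorted arrays and ranged widely over the tissue. Its intensity was 23.5 and 30.3 in Cdkn2a only cells, 22.6 and 25.1 in Cdkn2a/Braf cells at day 19, and 23.8 and 24.2 at day 50. In the tissue it was 552, 581 and 392 in the proliferations, 405 and 1255 in Cdkn2a/Braf melanoma, and 184 and 63 in Cdkn2a/Braf/Lkb1 melanoma. All 7 tissue arrays lay above all 6 sorted ones. The group means on the log2(intensity + 1) scale, used for every level and difference from here on, ran from 9.48 ± 1.15 (SD, n = 2) in Cdkn2a/Braf melanoma through 8.97 ± 0.31 (SD, n = 3) in the proliferations to 6.77 ± 1.08 (SD, n = 2) in Cdkn2a/Braf/Lkb1 melanoma, where the arrays of the first 2 groups overlap and those of the last lie below both.

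Cpa3 had the same shape with a smaller gap between the melanoma genotypes. Its intensity was 42.2 and 34.6 in Cdkn2a only cells, 25.7 and 31.1 in Cdkn2a/Braf cells at day 19, and 31.6 and 48.1 at day 50. It was 555, 491 and 455 in the proliferations, 421 and 1513 in Cdkn2a/Braf melanoma, and 435 and 155 in Cdkn2a/Braf/Lkb1 melanoma. As for Mcpt4, all 7 tissue arrays lay above all 6 sorted ones (2 of 8 members had no overlap between these materials, against 5.21% of all genes), but replicate 1 of the 2 melanoma genotypes had nearly the same intensity, so these genotypes overlap. The levels were 9.64 ± 1.30 (SD, n = 2), 8.97 ± 0.14 (SD, n = 3) and 8.03 ± 1.04 (SD, n = 2) in Cdkn2a/Braf melanoma, proliferations and Cdkn2a/Braf/Lkb1 melanoma, and 4.87 to 5.32 in the sorted groups.

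Cma1 moved over a narrower range. It was 34.8 and 34.5 in Cdkn2a only cells, 40.5 and 40.1 in Cdkn2a/Braf cells at day 19, 48 and 61.2 at day 50, 115, 111 and 104 in the proliferations, 72.7 and 138 in Cdkn2a/Braf melanoma, and 64 and 56 in Cdkn2a/Braf/Lkb1 melanoma. The proliferations lay above every sorted array and above both arrays of Cdkn2a/Braf/Lkb1 melanoma, and of the tissue arrays only replicate 2 of that melanoma, at 56, fell inside the sorted range. Its levels were highest in the proliferations, 6.79 ± 0.08 (SD, n = 3), and in Cdkn2a/Braf melanoma, 6.66 ± 0.65 (SD, n = 2), whose arrays overlap.

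Tpsb2 showed little contrast between materials. It was 83.6 and 107 in Cdkn2a only cells, 93.5 and 104 in Cdkn2a/Braf cells at day 19, 143 and 123 at day 50, 156, 159 and 125 in the proliferations, 161 and 263 in Cdkn2a/Braf melanoma, and 130.0 and 123 in Cdkn2a/Braf/Lkb1 melanoma. Both arrays of Cdkn2a/Braf melanoma lay above all others, and 4 of the 7 tissue arrays lay above every sorted one.

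The receptor chains were near their sorted intensity on almost all tissue arrays. Fcer1a, the chain that binds IgE, was 20.3 and 23.3 in Cdkn2a only cells, 19.3 and 20.8 in Cdkn2a/Braf cells at day 19, 26.3 and 29.9 at day 50, 26.3, 30.8 and 28.5 in the proliferations, 30.9 and 215 in Cdkn2a/Braf melanoma, and 39.8 and 26.3 in Cdkn2a/Braf/Lkb1 melanoma. A single array, replicate 2 of the Cdkn2a/Braf melanoma, stood far above the rest. Ms4a2, the beta chain that amplifies the receptor signal, was 25 to 28.8 in Cdkn2a only cells, 19.8 to 23 in Cdkn2a/Braf cells at day 19, 24.8 to 28.8 at day 50, 25.7 to 36.3 in the proliferations, 25.8 and 54.9 in Cdkn2a/Braf melanoma, and 22.4 and 22.2 in Cdkn2a/Braf/Lkb1 melanoma. The same array was highest for it, and every tissue group had at least 1 array inside the sorted range.

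Hdc was 52.3 and 42.2 in Cdkn2a only cells, 64.4 and 52.6 in Cdkn2a/Braf cells at day 19, 62.2 and 62.6 at day 50, 59.9, 61.6 and 66.8 in the proliferations, 74.3 and 231 in Cdkn2a/Braf melanoma, and 65.6 and 87.7 in Cdkn2a/Braf/Lkb1 melanoma. The melanoma arrays all lay above the sorted ones, and replicate 2 of the Cdkn2a/Braf melanoma was again the highest. Gata2, which is needed for mast cell development and is also made by endothelial cells, followed another order. It was 66.4 and 72.6 in Cdkn2a only cells, 72.7 and 70.6 in Cdkn2a/Braf cells at day 19, 142 and 90.1 at day 50, 91.7, 96.8 and 91.7 in the proliferations, 77.2 and 76.5 in Cdkn2a/Braf melanoma, and 63.6 and 70.5 in Cdkn2a/Braf/Lkb1 melanoma. Its highest array was replicate 1 of the day 50 cells, and no tissue array lay above every sorted one.

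**Figure D1:**
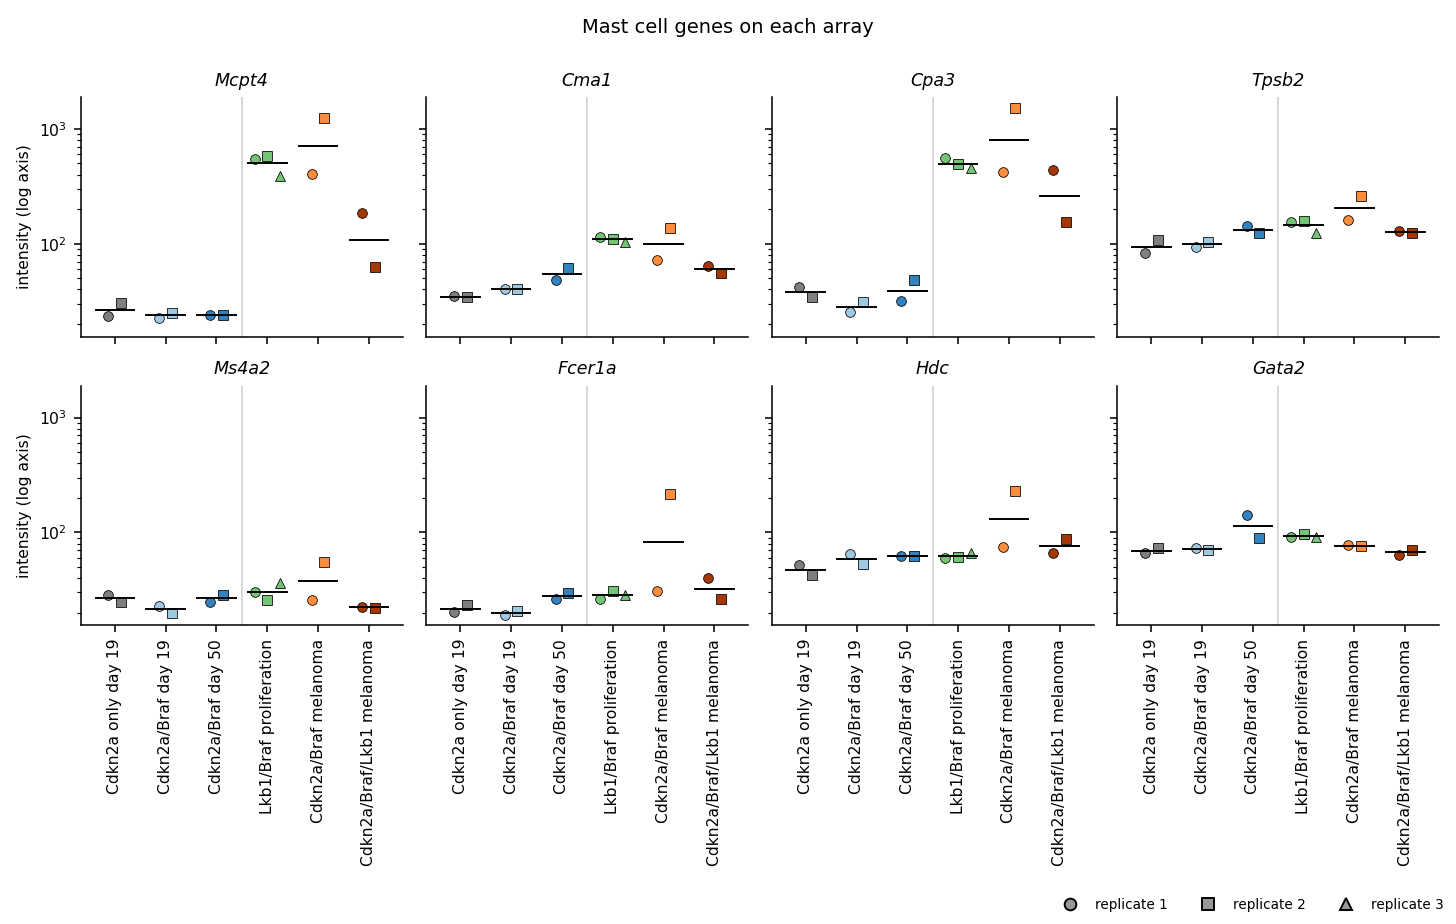
Intensity of the 8 mast cell genes on each of the 13 arrays, on a log axis, by group; points are arrays, their shape gives the replicate number, black bars are group means taken on the log2(intensity + 1) scale, and the grey line parts sorted cells (left) from tissue (right). Mcpt4 and Cpa3 lie above all sorted arrays on all 7 tissue arrays, and replicate 2 of the Cdkn2a/Braf melanoma is the highest array for every gene but Gata2.

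Tissue differed from sorted melanocytes mainly in Mcpt4 and Cpa3, with smaller differences in Cma1 and Tpsb2. Taking the mean of the 3 tissue groups against the mean of the 3 sorted groups, 4 of 8 members rose in tissue and none fell, by limma's moderated test at an adjusted p under 0.05, where 15.7% of all genes rose. Mcpt4 was 13.1-fold higher, a log2 difference of 3.72 (SE 0.30, limma adjusted p = 9.3e-06), and Cpa3 was also 13.1-fold higher, at 3.72 (SE 0.32, limma adjusted p = 1.32e-05). Cma1 rose 2.03-fold, by 1.02 (SE 0.14, limma adjusted p = 0.00033). Tpsb2 rose 1.45-fold, by 0.53 (SE 0.13, limma adjusted p = 0.0104), and under quantile normalization that difference was 0.37 with a limma adjusted p of 0.0562. The other 4 members did not pass: Fcer1a differed by 0.85 (95% interval 0.05 to 1.65), Hdc by 0.62 (0.12 to 1.11), Ms4a2 by 0.24 (-0.12 to 0.60) and Gata2 by -0.08 (-0.30 to 0.15). The median over the 8 members was 0.73, against -0.08 over all genes. Without replicate 1 or replicate 2 of the Cdkn2a/Braf melanoma that group holds 1 array, and the spread between its replicates leaves the error. The standard error of Fcer1a was then 0.12 in both cases against 0.36 with all arrays. Calls of those fits are therefore not compared with these. Genes of other stromal cells were higher in tissue as well, 10 of 10 for the macrophage list and 10 of 10 for the fibroblast list, and their part in the differences of the mast cell genes was not tested.

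Between the melanoma genotypes, Mcpt4 was the member that fell with Lkb1 loss. It was 6.56-fold lower in Cdkn2a/Braf/Lkb1 than in Cdkn2a/Braf melanoma, a log2 difference of -2.71 (SE 0.53, limma adjusted p = 0.0288). Both arrays of the first lay below both of the second, as they also did for Cma1, Tpsb2, Ms4a2 and Gata2, which were not called. The share of all genes so separated is not given here. Mcpt4 was 1 of 8 members called, where 0.732% of all genes fell. The other members did not pass, with limma adjusted p from 0.135 to 0.61. Their differences were -0.74 for Cma1 (95% interval -1.28 to -0.19), -1.61 for Cpa3 (-2.87 to -0.36), -0.70 for Tpsb2 (-1.21 to -0.19), -0.73 for Ms4a2 (-1.37 to -0.09), -1.31 for Fcer1a (-2.74 to 0.11), -0.78 for Hdc (-1.67 to 0.11) and -0.20 for Gata2 (-0.60 to 0.21). All 8 estimates were thus negative, with a median of -0.76 against -0.04 over all genes.

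These values rest on how the melanoma replicates differ. From replicate 1 to replicate 2 of the Cdkn2a/Braf melanoma, intensity differed 6.97-fold for Fcer1a, 3.59-fold for Cpa3, 3.10-fold for Mcpt4, 3.12-fold for Hdc, 2.13-fold for Ms4a2, 1.90-fold for Cma1 and 1.64-fold for Tpsb2, always with replicate 2 higher, and was level for Gata2, with a ratio of 0.992. Only 1.74% of all genes were higher by 1 or more on the log2 scale in that replicate. In the Cdkn2a/Braf/Lkb1 pair the order was the opposite for Mcpt4 and Cpa3, with ratios of replicate 2 to replicate 1 of 0.343 and 0.358. Leaving out 1 melanoma array leaves its group with 1, so the spread between that group's replicates no longer enters the error. Calls of such fits are therefore not compared with those of all arrays. Without replicate 2 of the Cdkn2a/Braf melanoma, Fcer1a and Hdc differed by 0.07 and 0.03. Mcpt4 differed by -1.95 without replicate 2 of the Cdkn2a/Braf/Lkb1 melanoma and by -3.48 without its replicate 1. Over all alternatives Mcpt4 ran from -3.53 to -1.13. Its call was lost in 5 of 15, a count that includes fits with 1 array in a melanoma group. Mcpt4 missed the threshold with only these 2 groups in the fit (limma adjusted p = 0.209) and with the replicate number as a block (0.0799). Keratinocyte signal differed between the same arrays: the 8 keratinocyte genes summed to 624 on replicate 1 and 6522 on replicate 2 of the Cdkn2a/Braf melanoma, and to 566 and 1172 in Cdkn2a/Braf/Lkb1 melanoma. The part of this in the differences of the mast cell genes was not tested.

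**Figure D2:**
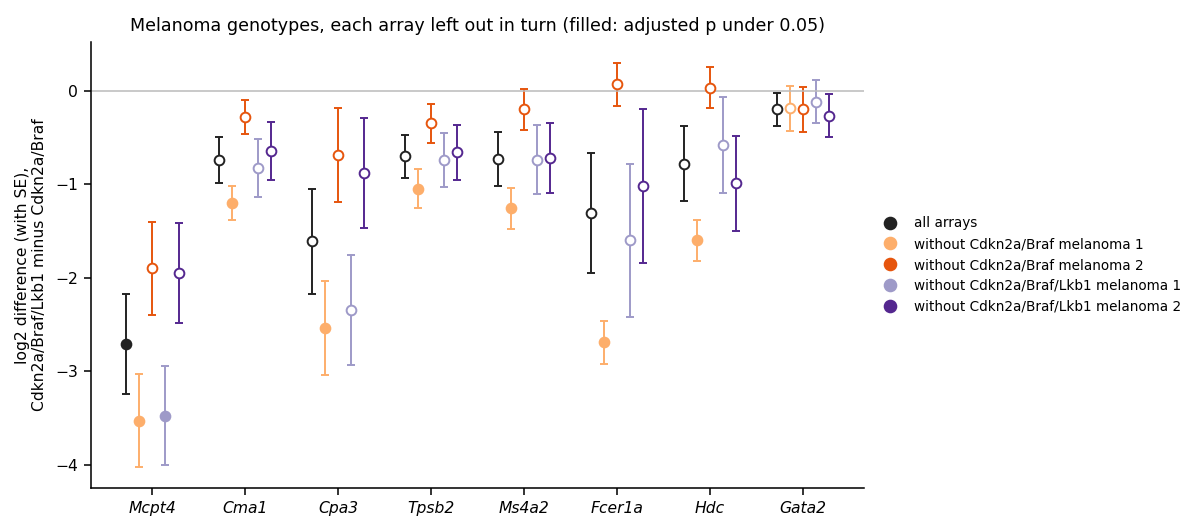
Log2 difference of each mast cell gene between the melanoma genotypes (Cdkn2a/Braf/Lkb1 minus Cdkn2a/Braf) in the fit of all arrays and with each of the 4 melanoma arrays left out; error bars are standard errors and filled points have a limma adjusted p under 0.05. With all arrays only Mcpt4 is filled. Each other fit leaves 1 array in a melanoma group, whose replicate spread is then not in the error, so filling is not comparable between fits.

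Both melanoma genotypes were set against the same 3 arrays of Lkb1/Braf proliferations, so these comparisons share their control arrays. Cdkn2a/Braf melanoma and proliferations differ in the alleles of both Cdkn2a and Lkb1 as well as in the kind of lesion, which cannot be told apart here. No member passed in that comparison by limma, where 21.5% of all genes did in either direction, and 3 members had an unadjusted limma p under 0.05, as did 35.2% of all genes. These were Hdc, higher by 1.05 in the melanoma (SE 0.36, limma adjusted p = 0.0653), Fcer1a, higher by 1.49 (SE 0.59, limma adjusted p = 0.0971), and Tpsb2, higher by 0.49 (SE 0.21, limma adjusted p = 0.12). In all 3 the melanoma arrays lay above the proliferation arrays, and for Gata2 they lay below. The share of all genes so separated is not given here. Mcpt4 differed by 0.51 (95% interval -0.57 to 1.59), Cpa3 by 0.68 (-0.46 to 1.82), Cma1 by -0.13 (-0.63 to 0.37), Ms4a2 by 0.29 (-0.29 to 0.88) and Gata2 by -0.28 (-0.65 to 0.09). Without either melanoma array that group holds 1 array, so calls of those fits are not compared with these. Mcpt4, Cpa3, Cma1 and Ms4a2 each had differences of opposite sign in those fits. With arrays scaled to a common interquartile range, Fcer1a and Hdc passed.

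Cdkn2a/Braf/Lkb1 melanoma was lower than the proliferations in 3 of 8 members, where 20.6% of all genes fell. Mcpt4 was 4.61-fold lower, at -2.21 (SE 0.49, limma adjusted p = 0.00607), and Cma1 1.82-fold lower, at -0.86 (SE 0.23, limma adjusted p = 0.013). Gata2 was 1.39-fold lower, at -0.47 (SE 0.17, limma adjusted p = 0.0446), a call that held in 5 of 14 alternatives. The melanoma arrays lay below the proliferation arrays for these 3, and also for Cpa3 and Ms4a2, which were not called. The share of all genes so separated is not given here. Cpa3 differed by -0.94 (95% interval -2.08 to 0.20), Ms4a2 by -0.44 (-1.02 to 0.15), Tpsb2 by -0.21 (-0.67 to 0.26), Fcer1a by 0.18 (-1.12 to 1.48) and Hdc by 0.27 (-0.54 to 1.08). Without replicate 2 of the melanoma, Mcpt4 differed by -1.44 and Cma1 by -0.77. That fit leaves 1 array of this melanoma, so its calls are not compared with these. Keratinocyte genes were far lower in the melanomas, at 566 to 6522 summed against 21202 to 22358 in the proliferations, and their part in these differences was not tested.

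Between the days of the sorted Cdkn2a/Braf cells, the share of members called was close to that of all genes. Gata2 was the 1 member of 8 called, where 11.1% of all genes rose. It was 1.57-fold higher at day 50 than at day 19, a log2 difference of 0.65 (SE 0.18, limma adjusted p = 0.029). The day 50 replicates agreed least of all replicate pairs (r = 0.91, SD of their log2 difference 0.703). Array interquartile ranges were 1.94 and 1.93 at day 50, and 2.58 and 2.54 in these cells at day 19. The call of Gata2 was lost in 7 of 13 alternatives, among them fits that leave 1 array in a group. Without replicate 1 of the day 50 cells, which leaves 1 array, the difference was 0.33. Of the 12 endothelial genes, 9 rose at day 50, and their sum was 970 to 1064 at day 19 and 1934 to 4575 at day 50, so endothelial signal was higher too. The keratinocyte sum was 2355 to 2717 at day 19 and 11649 to 15584 at day 50, the fibroblast sum 1488 to 2174 and 6621 to 6755, and the melanocyte sum 45100 to 49323 and 24094 to 31010. The part of these other cells in the Gata2 difference was not tested. The remaining 7 members differed by 0.01 to 0.46 with limma adjusted p of 0.17 to 0.988, and the median over the 8 was 0.42 against 0.17 over all genes. With arrays scaled to a common interquartile range, Mcpt4, Cpa3, Fcer1a, Ms4a2 and Hdc had negative differences.

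The Braf allele left no call among the mast cell genes at day 19. Cdkn2a/Braf against Cdkn2a only cells gave 0 of 8 members by limma, where 0.291% of all genes passed in either direction, and none had an unadjusted p under 0.05, as 7.25% of all genes did. The differences ran from -0.42 for Cpa3 (95% interval -1.67 to 0.83) to 0.30 for Hdc (-0.59 to 1.19), and the median was -0.03 against 0.02 over all genes. This comparison and that of the days share the 2 Cdkn2a/Braf arrays of day 19.

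**Figure D3:**
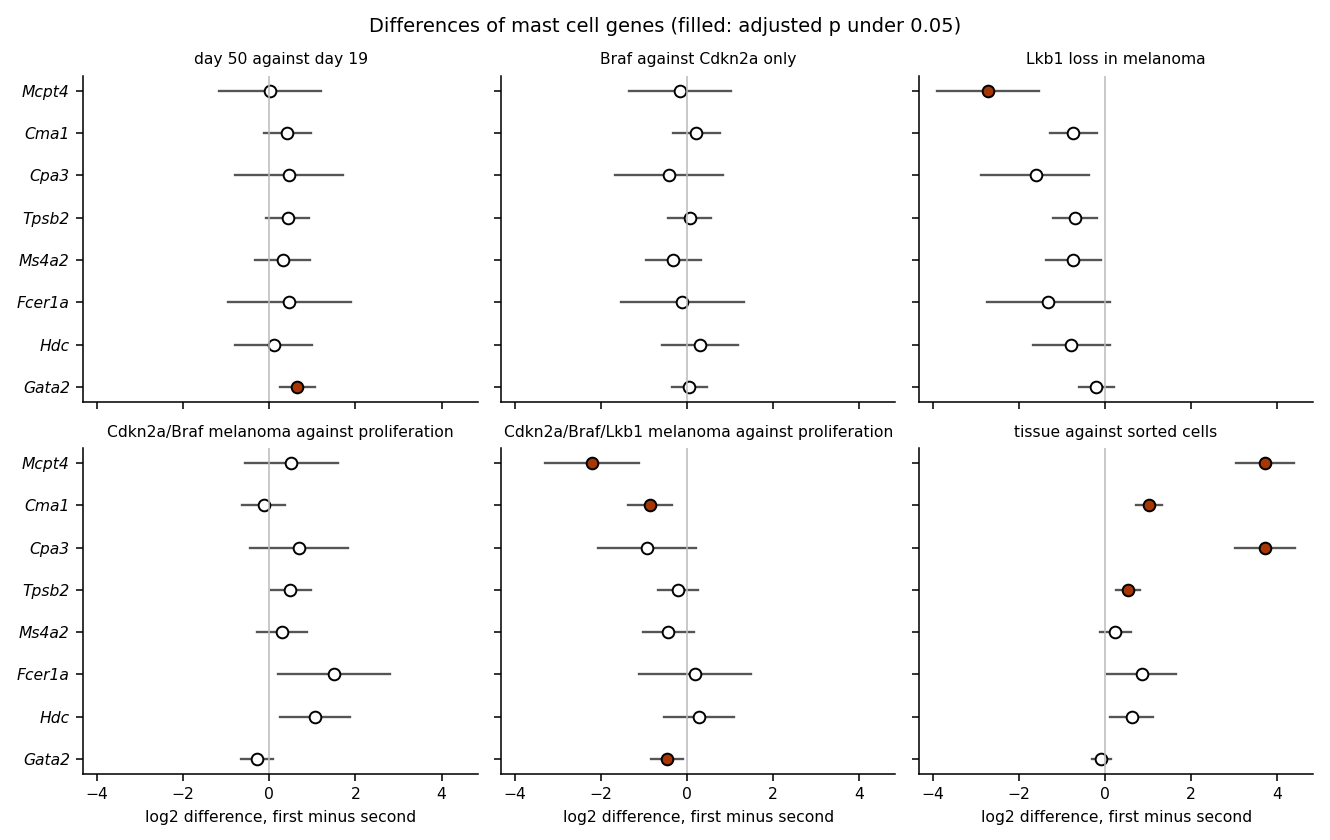
Log2 differences of the 8 mast cell genes in the 6 comparisons, first group minus second, from 1 limma fit of all 13 arrays; bars are 95% intervals and filled points have a limma adjusted p under 0.05. Filled points appear for Gata2 at day 50, Mcpt4 with Lkb1 loss, Mcpt4, Cma1 and Gata2 in Cdkn2a/Braf/Lkb1 melanoma against proliferations, and Mcpt4, Cma1, Cpa3 and Tpsb2 in tissue against sorted cells.

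Other genes of mast cell granules were taken from a list of 8, of which 7 were measured alone. In tissue against sorted cells 3 of these 7 rose (Srgn, Tpsab1 and Ndst2), where 15.7% of all genes rose, and Tpsg1 fell, where 16.5% of all genes did. In Cdkn2a/Braf melanoma against proliferations 2 of 7 rose, Tpsab1 and Mcpt2, where 12.6% of all genes did, and in the comparison of melanoma genotypes none passed by limma. Tpsab1, named as the alpha/beta tryptase and listed by RefSeq as a transcribed pseudogene in this assembly, is the neighbour of Tpsb2 on chromosome 17. It was 42.4, 44.1 and 37.6 in the proliferations, 241 and 1016 in Cdkn2a/Braf melanoma, 153 and 55.1 in Cdkn2a/Braf/Lkb1 melanoma, and 41.6 to 56.1 on the sorted arrays. The proliferations, high in Mcpt4 and Cpa3, were thus within or below the sorted range for Tpsab1, whereas 3 of 4 melanoma arrays lay above it. Cdkn2a/Braf melanoma was 11.7-fold above the proliferations, by 3.55 (SE 0.53, limma adjusted p = 0.0014). The difference was 2.51 without replicate 2 of that melanoma, which leaves 1 array in its group. Between the melanoma genotypes Tpsab1 differed by -2.42 (SE 0.58, limma adjusted p = 0.0592). Without replicate 2 of the Cdkn2a/Braf melanoma that difference was -1.38, and without its replicate 1 it was -3.45. Without replicate 1 of the Cdkn2a/Braf/Lkb1 melanoma it was -3.14, and without replicate 2 it was -1.69. Each of these fits leaves 1 array in a melanoma group.

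Mcpt2, a chymase best known from mast cells of mucosa, was 29.8 and 589 in Cdkn2a/Braf melanoma, 22.3 and 13.5 in Cdkn2a/Braf/Lkb1 melanoma, 15.4, 12.7 and 14.5 in the proliferations and 11.4 to 15 on the sorted arrays. It rose by 3.15 in Cdkn2a/Braf melanoma over proliferations (SE 0.88, limma adjusted p = 0.0297), and by 1.02 without the array at 589, which leaves 1 array of that melanoma. The call of Mcpt2 was lost in 6 of 13 alternatives, among them leaving out any of the 3 proliferation arrays. Mcpt1 reached 28.1 on that same array and 11 to 18.2 on the others, and passed in no comparison. Chymases and tryptases resemble each other in sequence, and whether a probe set also reports a related transcript was not tested. Srgn, the proteoglycan core of the granule that macrophages also make, was 51.7 to 329 on sorted arrays and 412 to 1167 on tissue arrays, and rose by 2.22 (SE 0.26, limma adjusted p = 0.000134).

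Receptors and signalling genes gave 8 of 12 measured genes higher and 1 lower in tissue, against 15.7% and 16.5% of all genes. Mrgprb1, a receptor of the Mas-related family, had intensities of 44.5, 53.7 and 54.3 in the proliferations, 52.3 and 149 in Cdkn2a/Braf melanoma, 41.8 and 25 in Cdkn2a/Braf/Lkb1 melanoma and 19.6 to 28.7 on sorted arrays, with 6 of 7 tissue arrays above all sorted ones. It rose by 1.17 in tissue (SE 0.22, limma adjusted p = 0.00291). The gene that fell was Kit, the stem cell factor receptor of both mast cells and melanocytes, at 678 to 3900.3 on sorted arrays and 103 to 267 on tissue arrays, a difference of -4.00 (SE 0.26, limma adjusted p = 2.4e-06). With Lkb1 loss 3 of these 12 genes rose, against 1.83% of all genes, and none fell. They were Fcer1g, the shared gamma chain of Fc receptors, by 0.91 (SE 0.20, limma adjusted p = 0.0472), Csf2rb, a cytokine receptor chain, by 1.70 (SE 0.31, 0.0192), and the kinase Btk, by 1.21 (SE 0.20, 0.0117). These 3 are also expressed in macrophages, whose 10 genes summed to 7638 to 9859 in Cdkn2a/Braf/Lkb1 melanoma and 4152 to 4657 in Cdkn2a/Braf melanoma, and the part of macrophage RNA was not tested. Leaving out 1 melanoma array leaves its group with 1, so calls of those fits are not compared with these. Fcer1g and Csf2rb missed the threshold under quantile normalization (limma adjusted p = 0.142 and 0.0752) and with a common interquartile range (0.126 and 0.0561). With only the compared groups in the fit none of the 3 passed by limma (adjusted p = 0.141 for Fcer1g, 0.161 for Csf2rb and 0.104 for Btk), and with the replicate number as a block Fcer1g had an adjusted p of 0.0914. Il1rl1, Adora3 and Lyn of this list had no probe set of their own.

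Of 11 measured genes for mast cell mediators, 4 rose in tissue against sorted cells (Hpgds, Alox5, Alox5ap and Ptgs2), where 15.7% of all genes rose, and none fell. None passed with Lkb1 loss by limma. Slc18a2, the transporter that loads histamine and serotonin into granules, was 40.4 to 61.1 on sorted and 38.7 to 62.8 on tissue arrays and passed in no comparison. Among 8 further transcription factors of mast cells, Runx1 and Spi1 rose in tissue, where 15.7% of all genes rose. Mitf and Stat5b fell, where 16.5% of all genes did. Mitf is also on the melanocyte list, and was 1027 to 1638 on sorted and 66.4 to 172 on tissue arrays. Gata1, which acts beside Gata2, was 60.5 to 92.5 on sorted and 41.4 to 84.5 on tissue arrays. It fell in Cdkn2a/Braf/Lkb1 melanoma against proliferations by 0.61 (SE 0.16, limma adjusted p = 0.0126), where 20.6% of all genes fell. Array interquartile ranges were 2.89 and 2.71 in that melanoma and 2 to 2.11 in the proliferations. Spi1, a factor of mast cells and macrophages, rose with Lkb1 loss by 1.41 (SE 0.23, limma adjusted p = 0.0116). It missed the threshold with only the compared groups in the fit (limma adjusted p = 0.121). Calls of fits that leave 1 array of a melanoma genotype are not compared with these.

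Kitl, from a list of 4 growth factors of mast cells, encodes stem cell factor. It was 84.2, 83.3 and 111 in the proliferations, 382 and 439.9 in Cdkn2a/Braf melanoma, 245 and 99.7 in Cdkn2a/Braf/Lkb1 melanoma and 20.9 to 80.7 on sorted arrays, so that all tissue arrays lay above all sorted ones. It was 4.41-fold higher in Cdkn2a/Braf melanoma than in the proliferations, a log2 difference of 2.14 (SE 0.53, limma adjusted p = 0.0174). That call missed the threshold without replicate 1 or 2 of the proliferations. In those fits, and without either melanoma array, which leaves 1 in its group, the differences were 2.04 to 2.24. Against sorted cells Kitl rose in tissue by 2.26 (SE 0.32, limma adjusted p = 0.000501) and Il33 by 2.41 (SE 0.27, limma adjusted p = 9.05e-05). Il3 and Il9 did not pass between tissue and sorted cells.

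**Figure D4:**
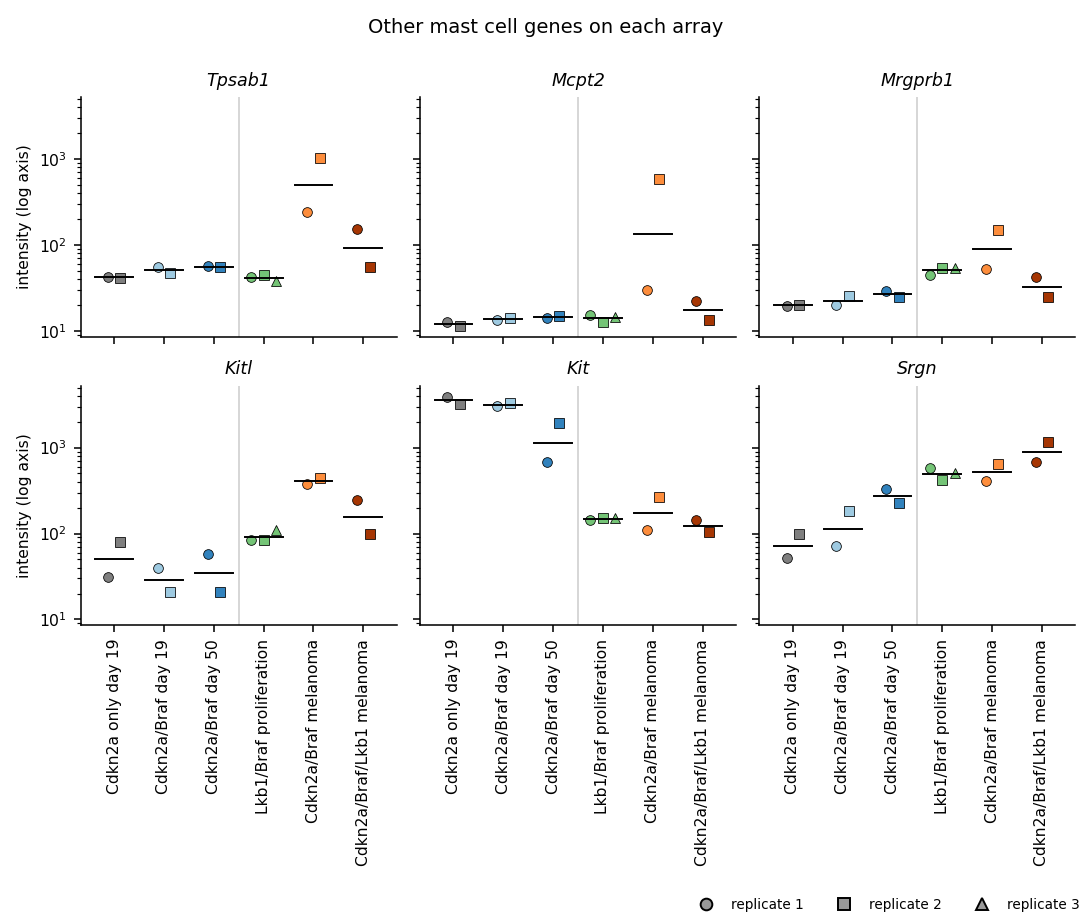
Intensity of 6 further mast cell genes, picked after their values were seen, on each array and on a log axis; points are arrays, shapes are replicate numbers, bars are group means on the log2(intensity + 1) scale, and the grey line parts sorted cells (left) from tissue (right). Tpsab1 is at sorted intensity in the 3 proliferations and above it on 3 of 4 melanoma arrays, Mcpt2 is high on 1 array, and Kit is higher on all sorted arrays than on any tissue array.

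Genes of other granulocytes did not follow the proteases. The 3 basophil genes (Mcpt8, Prss34 and Cd200r3) summed to 97 to 142 on sorted arrays and 90 to 124 on tissue arrays, and the 4 eosinophil genes (Prg2, Epx, Siglecf and Ccr3) to 162 to 213 and 137 to 194. None of these 7 passed in tissue against sorted cells by limma. Basophils also express Fcer1a, Ms4a2 and Hdc, and on replicate 2 of the Cdkn2a/Braf melanoma, where these 3 were highest, Mcpt8 was 26.5, Prss34 49.4 and Cd200r3 13.6, all inside or below their sorted ranges. The part of basophils in the values of these 3 members was not tested.

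Likeness to the members was ranked by Pearson's r with the mean of the 8 standardised members over the 13 arrays, among 11664 genes whose level ranged by at least 1. The arrays fall into sorted and tissue sets and share the high array, so r is given as a description. The 10 genes most alike were Slc29a1 (0.97), Mrgprb1 (0.96), Ptk2b, Crispld1, Sema3d, Rftn1 and Plxdc1 (0.95 each), Tsc22d3 and Gm4951 (0.94 each) and Dpep1 (0.93). Slc29a1, a nucleoside transporter, had an intensity of 431 on replicate 2 and 153 on replicate 1 of the Cdkn2a/Braf melanoma, 172, 144 and 122 in the proliferations, 103 and 76.4 in Cdkn2a/Braf/Lkb1 melanoma and at most 103 on sorted arrays. Sema3d, a secreted semaphorin, was 1807 on the first of these arrays and 64.4 to 243 on the other tissue arrays. The order rests on that array: over the other 12 arrays, a ranking added after the data were seen, r of these 10 genes was 0.84 to 0.96 and 1 of them, Rftn1, was still among the 10 most alike.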

How the data were processed

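Per the labels' protocols, RNA came from Qiagen RNeasy columns and was amplified with NuGEN Ovation V2, then fragmented and labelled (Encore). The deposited values are intensities made with RMA per the submitters' processing notes, with no version given. They are linear (3.35 to 17698), and the sources used here do not say how the authors came from RMA's log2 values to linear intensities. Of 34760 probe sets, 21640 name 1 gene, giving 19937 genes; for genes with several, the probe set with the highest mean was used.

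Levels are log2(intensity + 1), which understates differences of dim genes. limma 3.58.1 in R 4.3.3 fitted 6 group means over all 13 arrays (7 residual and 3.08 prior degrees of freedom), two-sided, with Benjamini-Hochberg adjustment over 19937 genes at 0.05. The fit was tested on simulated data. Alternatives were median centring, quantile normalization, a common interquartile range, a pseudocount of 16, the mean of probe sets, a filter on dim genes, a trend with robust moderation, only the compared groups, a replicate block, and leaving out each array. Counts of alternatives that kept or lost a call include fits that leave 1 array in a group. In those the replicate spread of that group is not in the error. Same-numbered samples did not deviate together (correlations of -0.12 to 0.09 over 30 pairs). Outside pairs with the proliferations, both replicate numbers gave the same correlation, so these are not 30 separate checks. Whether the numbers pair the samples is therefore not known.

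The members and gene lists were chosen with earlier results of these data known. Named genes are the 8 members, genes of these lists, and the 10 genes most alike in pattern.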

Additional observations from a re-analysis of the deposited data

How the results depend on the processing

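Values for single members under the alternatives were tallied in every comparison but that of Braf. Of these, 543 kept direction and side of the threshold, 24 lost it, 18 gained it and 21 changed sign. The cause was not tested for any of them. The tally includes fits that leave 1 array in a group, whose calls are not comparable with those of all arrays. With all arrays the number of members called was 1 for day 50 against day 19, 1 for Lkb1 loss, 0 and 3 for the 2 melanoma genotypes against proliferations, and 4 for tissue against sorted cells. For day 50 it was 0 under median centring, quantile normalization, a fit of the compared groups and the replicate block. For Lkb1 loss it was 0 in a fit of the compared groups, 0 with the replicate block, and 0 with replicate 1 alone of each melanoma genotype, a setting chosen after the data were seen. For Cdkn2a/Braf melanoma against proliferations it was 2 under the common interquartile range. Leaving out each array in turn gave 0 to 1 for day 50, 0 to 7 for Lkb1 loss, 0 to 4 and 0 to 2 for the melanoma genotypes against proliferations in the order above, and 4 to 7 for tissue. Apart from leaving out a proliferation array, such a fit leaves 1 array in a group, so its count is not comparable with that of all arrays. The Braf comparison gave 0 under every alternative run, and restricting the fit to compared groups does not apply to tissue against sorted cells, which uses all groups. Whether replicate numbers pair these samples is not known. The replicate block left the count at 4 for tissue, 0 for Braf and 0 for Cdkn2a/Braf melanoma, and gave 2 for Cdkn2a/Braf/Lkb1 melanoma. Numbers crossed between the melanoma genotypes, a setting chosen after the data were seen, gave 1 call for Lkb1 loss.

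Outside the Braf comparison, which that tally leaves out, the differences that changed sign were these. For day 50, Mcpt4 was -0.08 under median centring, -0.28 under quantile normalization and -0.63 under the common interquartile range, and Hdc was -0.10 under quantile normalization. Under the common interquartile range Hdc was -0.14, Cpa3 -0.02, Fcer1a -0.15 and Ms4a2 -0.31. Over left-out arrays Mcpt4 ran from -0.06 to 0.08 and Hdc from -0.04 to 0.24. For Lkb1 loss, replicate 1 alone of each genotype gave 0.05 for Cpa3 and 0.36 for Fcer1a, and left-out arrays gave -2.69 to 0.07 for Fcer1a and -1.60 to 0.03 for Hdc. For Cdkn2a/Braf melanoma against proliferations left-out arrays gave -0.59 to 0.33 for Cma1, -0.24 to 1.60 for Cpa3, -0.31 to 1.32 for Mcpt4 and -0.24 to 0.82 for Ms4a2. For Cdkn2a/Braf/Lkb1 melanoma, Ms4a2 was 0.22 under the common interquartile range and Fcer1a ran from -0.11 to 0.47 over left-out arrays. For tissue Gata2 ran from -0.18 to 0.03. The mast cell genes with the lowest intensities, Ms4a2 and Fcer1a, dropped out under the filter on dim genes.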
